A study of Mus musculus with 6 samples.

Results

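Isolated accessible sites of the mouse liver were defined as DNase I hypersensitive regions found in all 6 libraries of the series and lying more than 100 kb from any other such region on either side. Hotspots of the 6 lists that overlapped by at least 1 bp on chromosomes 1 to 19 were merged into 72722 union regions, of which 36088 were called in every library and are here called shared. Of these shared regions, 1473 (4.08%) had a gap of over 100 kb to the nearest other shared region, and these are the isolated sites. They were chosen by the calls and the positions, so their presence in every library and their distance from other shared regions are not findings. The livers came from C57BL/6 mice on a 12 h light cycle, 3 samples from mice with free access to food (fed) and 3 from mice fasted for 24 h. All were taken at 6 am, at the start of the light phase. Nuclei were isolated from the fresh whole organ and treated with DNase I at 40 U/ml. The labels give replicate numbers but no animal numbers, ages or sexes, so a p-value here speaks only of the spread among the samples, part of which may be technical. In a whole organ, fewer cells of a type and less open chromatin per cell cannot be told apart. No gene annotation of the files' genome build (mm9) was used here, so the tissue was not checked against marker genes and sites are named by mm9 position.

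DNase I cuts DNA where nucleosomes are displaced, which is the case at active promoters, at enhancers and at sites bound by architectural proteins such as CTCF. A local excess of cuts is called a hotspot, and the height of the tag density there rises with the share of cells and of time in which the DNA is open. In gene-rich parts of a genome such sites crowd together, as groups of enhancers around the genes they serve. In long gene-poor stretches they are sparse, and a lone open site there may be a distant enhancer, the promoter of a gene with few regulatory elements or a structural site. In liver, fasting is known to redirect gene regulation through hormone-driven and nutrient-driven factors, among them the glucocorticoid receptor, CREB, PPAR alpha and FoxO1, which act largely at enhancers.

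The gap to the nearest shared region had a median of 162.6 kb among the isolated sites (quartiles 122.5 and 253.4 kb), against 5.54 kb among the other 34615 shared regions. In 118 sites it exceeded 500 kb and in 26 it exceeded 1 Mb. The widest gap surrounded a site of 927 bp on chromosome 14 (96327369 to 96328296), which had no shared region for 2223 kb on its nearer side and 2543 kb on the other. Tag density peaked there at 9.93, 6.74 and 6.18 in the fed libraries (replicates 1 to 3, in this order throughout) and 8.23, 10.9 and 14.8 in the fasted ones. These ranges overlap, and the site did not pass the test of fasting (adjusted p = 0.11, limma). The next widest gaps were 1856 kb on chromosome 14 (84842401 to 84843699), 1666 kb on chromosome 5 (80242125 to 80243996), 1579 kb on chromosome 16 (67620841 to 67621715) and 1553 kb on chromosome 3 (12227898 to 12228903). Mean densities of these 4 over all libraries ran from 8.11 to 27.7, and none passed the test (adjusted p from 0.19 to 0.91, limma).

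Sites next to the limit of 100 kb, on either side, were mixed in density. The narrowest gap among the isolated sites, 100226 bp, lay between a neighbouring pair on chromosome 7 (67535589 to 67536619 and 67636845 to 67637615) with mean densities of 25.8 and 7.52. A site of chromosome 13 (36208544 to 36210367), at a mean density of 157.5, followed. Just outside the limit lay a pair on chromosome 1 (99890531 to 99891191 and 99991184 to 99992630) and a site of chromosome 5 (114083897 to 114084716), with mean densities of 4.86, 14.1 and 5.82.

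Isolated sites were found on every chromosome from 1 to 19, at shares that differed more than 2-fold. Their share of the shared regions was lowest on chromosomes 19 (2.35%, 31 sites) and 11 (2.36%, 59 sites) and highest on chromosomes 3 (5.81%, 114 sites), 12 (5.12%, 77 sites) and 1 (5.01%, 120 sites). Many isolated sites had another isolated site as their neighbour. This held for 838 of the 1473 (56.9%), which formed 307 runs of at least 2 consecutive isolated sites, 61 of them with 4 or more. The longest run held 10 sites over 8.04 Mb of chromosome 3 (41544953 to 49582852), with mean densities from 8.12 to 79.6, and 1 of its sites fell on fasting. A run of 8 sites on chromosome 7 (67148657 to 70069879) and one of 7 on chromosome 3 (154259109 to 157198379) held none that changed. Only 6 isolated sites were the outermost shared region at the start of a chromosome and 4 at its end.

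Most isolated sites were not alone in the wider sense, since regions called in 1 to 5 libraries lay near them. Such regions are here called weaker for their fewer calls, and their density was not compared with that of the nearby isolated site. Within 100 kb the median isolated site had 2 such weaker regions, and the median other shared region had 5. For 284 isolated sites (19.3%) no region called in any library lay within 100 kb. For 328 (22.3%) a region called in 5 of the 6 libraries did, so that a single further call would have taken them out of the set. Among the other shared regions 1.99% had no weaker region within 100 kb, and 52.6% had one called in 5 libraries. The sites with no region of any kind nearby had a median density of 12.1 and the remaining 1189 one of 11.3.

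Isolated sites were weaker than other shared regions in every library. Density here is the maximum tag density deposited for each hotspot, on a scale that the sources used here do not give. The median over the isolated sites was 12.9, 12.4 and 11.4 in the fed libraries and 10.2, 9.87 and 10.6 in the fasted ones. The medians of the other shared regions were 26.1, 24.4 and 24.3 in the fed libraries, against 23.8, 21.7 and 25.4 in the fasted ones. Calls rest on density, so this is a description of the chosen sites. In tags, if 1 step of the density values is 1 tag, the median isolated site was 33 to 50 tags high in the 6 libraries and the median other shared region 65 to 110. The lists held 49682 to 63476 hotspots, and relative depth ran from 1 to 1.90, with fed replicate 3 (1.64) and fasted replicate 2 (1.90) the deepest. The 5th percentile of isolated sites stood at 12 to 18 tags, so the weakest carry a large counting error.

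**Figure D1:**
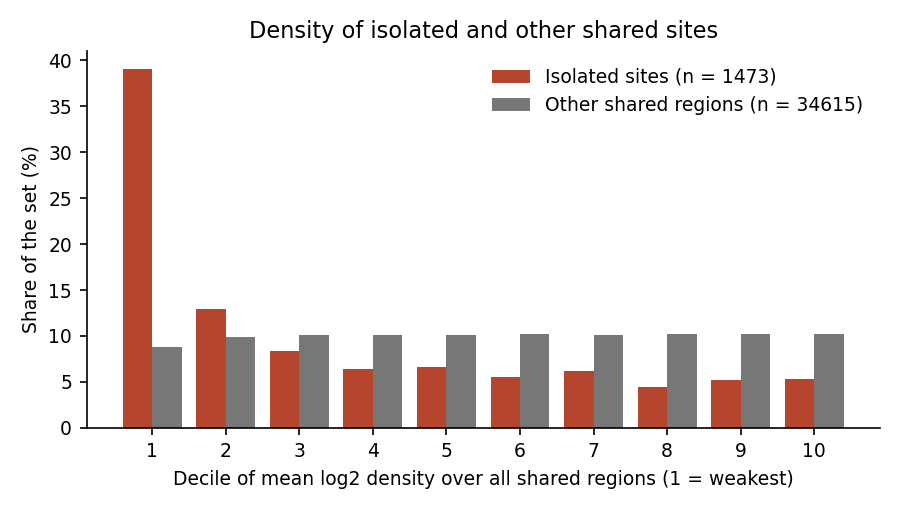
Share of isolated sites and of other shared regions (vertical axis, %) in each decile of density, where deciles are cut on the mean log2(density + 1) of all 36088 shared regions over the 6 libraries. The weakest decile holds 39.1% of the isolated sites and 8.76% of the others, and each decile from 4 upward holds 4.48 to 6.59% of the isolated sites.

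The isolated sites did not form a uniformly weak class. The weakest decile of all shared regions held 576 of them (39.1%) and the next 190 (12.9%), but 489 (33.2%) lay in deciles 5 to 10 and 78 (5.30%) in the strongest decile. The strongest lay on chromosome 17 (39979646 to 39985968), with densities of 361.9, 374.3 and 412.4 in the fed libraries, against 346.4, 503.4 and 429.8 in the fasted ones. It was 6322 bp wide and had no region of any kind within 100 kb. Whether this stretch occurs in more copies in the genome than in the mm9 assembly was not checked, so its density, rank and width may not be those of a single open site. On chromosome 1 (7386769 to 7388734) a site 292 kb from its nearest shared neighbour reached 247.1, 290.0 and 276.7 in the fed libraries, against 244.6, 305.3 and 267.0 in the fasted ones. The next strongest lay on chromosome 4 (98588622 to 98591644, mean density 240.8), chromosome 7 (112547711 to 112549501, 212.9) and chromosome 15 (68088983 to 68091405, 194.8). In all 5 the fed and fasted libraries overlapped as deposited, and none passed the test (adjusted p from 0.25 to 0.88, limma). At the other end, the weakest isolated site, on chromosome 12 (21840116 to 21840809), had densities of 4.41, 3.00 and 1.60 in the fed libraries, against 1.99, 1.18 and 2.12 in the fasted ones. A second site of chromosome 12 (20620580 to 20621299) and sites of chromosome 1 (65920042 to 65920731), chromosome 2 (67190454 to 67191068) and chromosome 10 (54608167 to 54608559) had mean densities of 2.42 to 3.26. None of these 5 passed either (adjusted p from 0.30 to 0.85, limma).

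At similar density the isolated sites were wider. To compare at similar density, the other shared regions were weighted so that their shares of the 10 density deciles equalled those of the isolated sites, and this is what matched means here. Density can still differ within a decile. Mean density had a median of 11.43 over isolated sites and 11.38 over matched regions, but a lower quartile of 6.76 against 7.75. The median width of the union region was 1027 bp over isolated sites, 1054 bp over other shared regions and 904 bp over the matched ones. In each of the 10 deciles the median isolated site was the wider, by 828.5 against 782 bp in the weakest decile, 1287 against 986 bp in decile 5 and 1782 against 1640 bp in the strongest. Among regions with exactly 1 hotspot of each library, which leaves out merged clusters (88.7% of the isolated sites remained), the medians were 978.5 bp and, matched, 874 bp. Greater width was not particular to the isolated sites. Regions with gaps of 50 to 100 kb had a median of 1054 bp, against 981 bp over all other shared regions matched on density. At 20 to 50 kb the medians were 1058 and 1022 bp, and at gaps up to 20 kb the order was reversed (1045 and 1065 bp at 5 to 20 kb). Within the hotspots the average density was 38.2% of the maximum in the median isolated site and 39.8% in the matched regions, and it was lower for the isolated sites in every decile. Among regions with exactly 1 hotspot of each library, the 6 hotspots shared 65.1% of the width in the median isolated site and 63.3% in the matched regions. No test was made over regions, which are not replicates, so these are differences between sets of places.

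**Figure D2:**
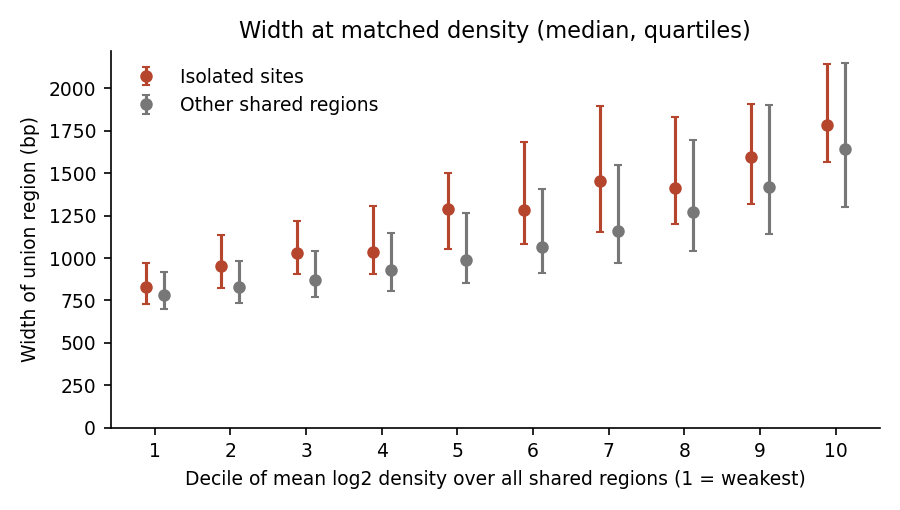
Width of the union region in bp (vertical axis) by density decile for isolated sites and other shared regions. Points are medians over regions and bars reach from the lower to the upper quartile; the median of the isolated sites lies above that of the others in all 10 deciles, for example 1287 against 986 bp in decile 5.

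The widest isolated regions differed in how many hotspots they joined. A region of 6416 bp on chromosome 16 (3231407 to 3237823) joined 23 hotspots of the 6 libraries at low densities, 11.4, 13.1 and 7.78 in the fed libraries, against 10.5, 12.4 and 7.57 in the fasted ones. The region of 6322 bp on chromosome 17, with the same doubt about its copy number, held 1 hotspot of each library. On chromosome 13 (44824715 to 44829814) 5099 bp joined 15 hotspots at densities of 186.5, 176.5 and 164.6 in the fed libraries, against 172.5, 183.3 and 219.2 in the fasted ones.

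Fasting changed 217 of the 1473 isolated sites, 141 downward and 76 upward (limma on log2(density + 1), with every library centred on its median over all 36088 regions, Benjamini-Hochberg adjusted p under 0.05 over all of them). Of all shared regions tested, 7.73% fell and 8.25% rose, while of the isolated sites 9.57% fell and 5.16% rose. The other shared regions matched on density fell in 7.20% and rose in 5.69%. Next to matched regions the isolated sites thus had a larger share of falls and a slightly smaller share of rises (a larger one, 6.51 against 5.29%, among the 553 sites with a gap of over 200 kb); no test of this difference over regions was made, since regions are not replicates. Among the changed isolated sites 35.0% had risen, and 22.0% when densities were used as deposited, without centring (45 rose and 160 fell). The count of risen sites was 47 without fed replicate 3 and 43 without fasted replicate 1. The count of fallen sites stayed between 98 and 134 when each library was left out in turn.

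Large changes were counted in the same way. A change of at least 1 on the log2 scale was seen in 58 fallen sites, 3.94% of the isolated sites. Falls of this size were seen in 2.87% of the other shared regions and 2.58% of the matched ones. Rises of this size were seen in 18 isolated sites (1.22%), against 2.06% of the other shared regions and 1.44% of the matched ones. The median log2 change, fasted minus fed, was -0.91 among the fallen and 0.81 among the risen isolated sites, and -0.05 among all 1473. Fallen sites went from a median density of 17.9 in fed to 7.22 in fasted livers, and risen sites from 11.1 to 22.4. The centred groups did not overlap at 411 isolated sites (27.9%, against 31.8% of all shared regions), at 255 with the fasted libraries lower (17.3%, against 14.3%) and at 156 with the fasted libraries higher (10.6%, against 17.4%). In matched regions these shares were 28.3%, 15.3% and 13.0%. Since a shared region needs a call in every library, a site that lost all signal on fasting, or had none in fed livers, is not among them.

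The median log2 density of the isolated sites, after centring each library, was -0.94 ± 0.048 in fed and -1.10 ± 0.066 in fasted livers (SD, n = 3 each). The values were -0.93, -0.90 and -0.995 in the fed libraries, against -1.11, -1.03 and -1.16 in the fasted ones, and the groups did not overlap. In the matched regions the corresponding values were -0.96 ± 0.014 and -1.03 ± 0.026 (SD, n = 3 each), and there too the groups did not overlap. In both sets the median change was below 0 in deciles 1 to 4 of density and above 0 in deciles 7 to 10. Over the other shared regions the median log2 change was -0.10 in the weakest decile and 0.14 in the strongest, and over the isolated sites it was -0.12 and 0.12.

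Among sites of low density as a whole, both directions were called in a larger share of the isolated sites, with the wider difference for falls. In deciles 1 to 4, 11.8% of 984 isolated sites fell and 4.27% rose, and of the matched other regions 7.22% fell and 3.30% rose. In the weakest decile 47 of 576 isolated sites fell (8.16%) and 16 rose (2.78%), where 5.64% and 1.75% of the other regions did. In deciles 2 to 4, grouped after the values were seen, 69 of 408 isolated sites fell (16.9%) and 26 rose (6.37%), and of the matched other regions 9.46% and 5.50% did. In decile 3 alone 27 of 123 fell (21.95%), where 9.93% of the others did. In deciles 5 to 10 the order turned, with falls in 25 of 489 isolated sites (5.11%) and 7.17% of the matched others, and rises in 34 (6.95%) and 10.5%. Of the 78 isolated sites in the strongest decile 3 rose and 0 fell, while 8.92% of the other regions there rose and 1.84% fell. Leaving out each library in turn gave shares of 11.8 to 15.9% for the falls of isolated sites in deciles 2 to 4, each above its matched share. For rises in these deciles the order was not stable. The isolated share was below the matched one without fed replicate 2 (4.17 against 4.52%), fasted replicate 1 (3.43 against 3.92%) or fasted replicate 2 (4.41 against 5.33%). It was above it without each of the others, and below it with centring within density deciles (7.11 against 7.37%).

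**Figure D3:**
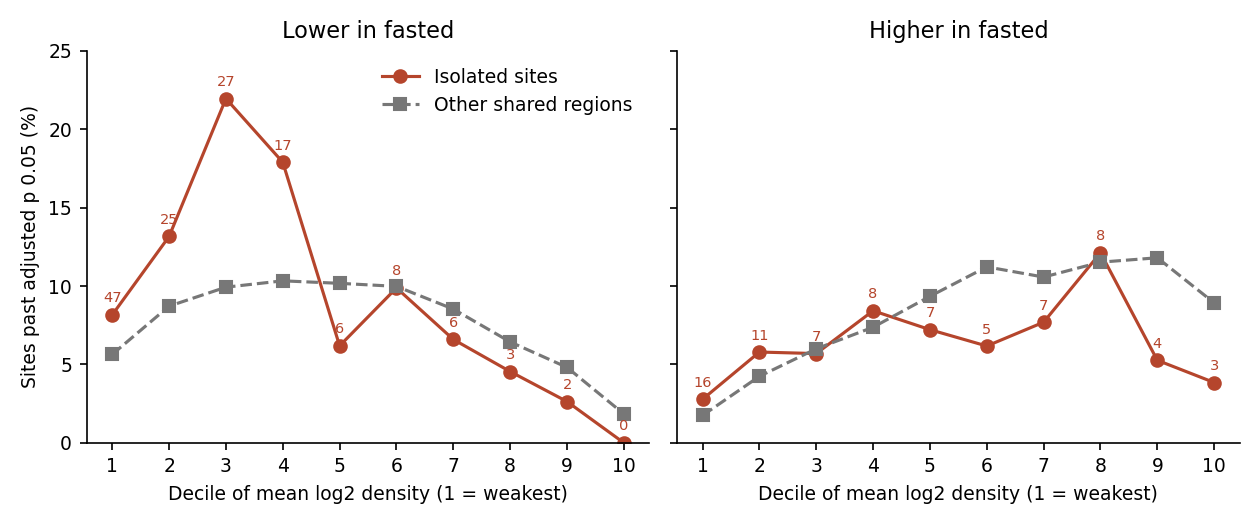
Share of sites past an adjusted p of 0.05 (vertical axis, %, limma) that were lower (left) or higher (right) in fasted livers, by density decile, for isolated sites and other shared regions. Small numbers give the count of isolated sites behind each point; falls among isolated sites peak at 21.95% (27 sites) in decile 3, and in decile 10 the counts are 0 and 3.

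Along the gap, the share of rises and the share of falls ran differently. Rises were called in 10.03% of the 6638 shared regions with a neighbour within 1 kb, in 7.66% of those with gaps of 5 to 20 kb and in 4.95% for 50 to 100 kb. Among isolated sites they were called in 4.35% of those with gaps up to 200 kb, 6.44% of those with 200 to 500 kb and 6.78% of those beyond. Falls were called in 8.06% of the regions with a neighbour within 1 kb and in 6.67% of those with gaps of 20 to 50 kb. Among isolated sites the share was 9.02% for gaps up to 200 kb, 10.3% for 200 to 500 kb and 11.02% of the 118 sites beyond 500 kb. All other shared regions matched on density to each class gave falls in 7.22 to 7.97% throughout. Rises matched in this way went from 8.36% for regions within 1 kb to 5.29 and 5.33% for the 2 widest classes of gap. The classes with the widest gaps hold few changed sites, 28 risen and 45 fallen at 200 to 500 kb and 8 risen and 13 fallen beyond.

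**Figure D4:**
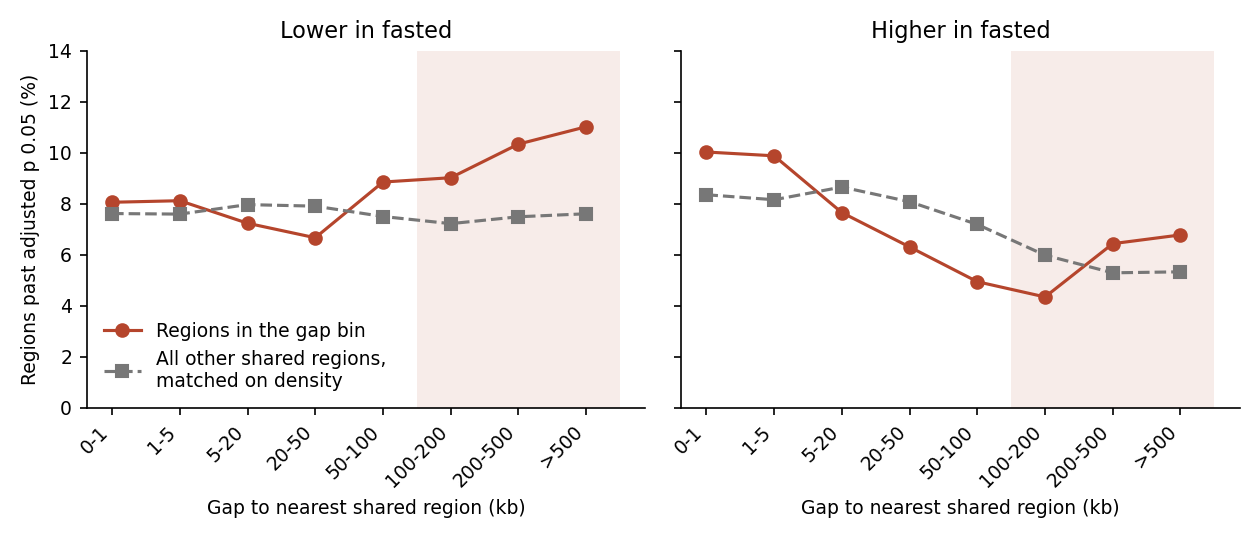
Share of shared regions past an adjusted p of 0.05 (vertical axis, %, limma) by gap to the nearest other shared region in kb, lower (left) or higher (right) in fasted livers; squares give all other shared regions weighted to the same density deciles, and shading marks the isolated sites. Falls climb from 6.67% at 20 to 50 kb over 8.85% at 50 to 100 kb to 11.02% beyond 500 kb. The matched share stays between 7.22 and 7.97%.

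The isolated site that fell most was also the shared region with the greatest fall of all, on chromosome 14 (11582371 to 11584068). Its density was 95.3, 47.96 and 97.5 in the fed libraries, against 4.82, 4.74 and 4.84 in the fasted ones, a log2 change of -3.66 (SE 0.24, adjusted p = 4.8e-09, limma). The fasted libraries were nearly equal, and the highest of them lay far below the lowest fed one. Its neighbouring shared regions lay 295.8 and 204.5 kb away. On chromosome 16 (48811547 to 48812738) densities of 41.9, 21.0 and 48.5 in the fed libraries stood against 4.26, 3.55 and 4.24 in the fasted ones (log2 change -2.77, SE 0.26, adjusted p = 2.9e-07). Fed replicate 2 was the lowest of the fed libraries at both sites, and still above every fasted one. This library was also the lowest fed one at the rest of the 10 greatest falls, except on chromosome 4 (52828373 to 52829422) and chromosome 3 (56528044 to 56529236).

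Next came a site of chromosome 7 (83634362 to 83635638), at 32.7, 19.5 and 43.5 in the fed libraries, against 4.82, 3.36 and 3.63 in the fasted ones (log2 change -2.60, adjusted p = 5.6e-07, limma). On chromosome 7, 6 of 81 isolated sites fell, against 141 of 1473 on all chromosomes, and it held 4 of the 10 greatest falls. A site at 94519166 to 94520767 went from 34.7 ± 7.11 to 6.59 ± 1.04 (SD, n = 3 each), and one at 96372232 to 96373428, the strongest of these 4 in fasted livers, from 75.3 ± 7.48 to 16.7 ± 2.23. The fourth (113379797 to 113381043) went from 29.2 ± 6.78 to 7.26 ± 1.13. Sites of chromosome 4 (52828373 to 52829422) and chromosome 3 (56528044 to 56529236) fell by 2.02 and by 1.74 (log2). The site of chromosome 3, with 571.1 kb to its nearest shared neighbour, went from 25.9 ± 3.15 to 6.59 ± 0.829.

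On chromosome 2, 4 consecutive isolated sites fell. The strongest fall was at the last of them (43077904 to 43078917), with densities of 28.3, 24.7 and 33.9 in the fed libraries, against 4.54, 4.74 and 3.63 in the fasted ones (log2 change -2.41, SE 0.23, adjusted p = 3e-07, limma). The third (41894358 to 41895532), 1182 kb from the last, had 34.6, 19.5 and 31.6 in the fed libraries, against 5.96, 11.1 and 3.33 in the fasted ones (log2 change -1.93, SE 0.31, adjusted p = 0.00016). Fasted libraries varied more here than at the other 9 named falls, but none reached the lowest fed value. The sites at 40288200 to 40289241 and 40706972 to 40707818, which the naming rule did not pick and which were singled out after their values were seen, fell by 0.78 and 0.88 on the log2 scale.

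Changes at neighbouring isolated sites were then counted over the whole set. Of 531 consecutive pairs of isolated sites, with a median gap of 266.3 kb, 14 had a change at both sites. In 11 of these both fell, in 1 both rose, and in 2 the directions differed. Of the single isolated sites 14.7% changed and 9.57% fell, and whether these pairs are more or fewer than such shares alone would give was not tested. The correlation of log2 change over the 531 pairs was 0.084, as a description across pairs that share libraries and, within a run, share sites.

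Among the risen isolated sites, a site of chromosome 1 (163680341 to 163681450) had the greatest change. Its density was 9.19, 9.37 and 8.93 in the fed libraries, against 38.6, 38.3 and 53.9 in the fasted ones, a log2 change of 2.19 (SE 0.20, adjusted p = 2.3e-07, limma). The fed libraries lay close together, and every fasted one stood over 4 times the highest of them. On chromosome 3 (13782366 to 13783733), where the nearest shared region was 597.7 kb away, it was 9.56, 11.6 and 9.16 in the fed libraries, against 43.7, 27.0 and 46.3 in the fasted ones (log2 change 1.90, SE 0.21, adjusted p = 2.3e-06). On chromosome 4 (69483792 to 69485255) it was 10.7, 12.4 and 9.84 in the fed libraries, against 34.3, 34.3 and 38.4 in the fasted ones (log2 change 1.70, SE 0.20, adjusted p = 3.7e-06). In fed livers all 3 of these sites were weak, below the fed median of the other shared regions.

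A weak site of chromosome 5 (120401896 to 120402747) went from 5.30 ± 0.177 to 17.2 ± 2.92 (SD, n = 3 each). On chromosome 10, 4 of 87 isolated sites rose, against 76 of 1473 on all chromosomes. This chromosome held 3 of the 10 greatest rises, at 37199269 to 37200961 (from 19.4 ± 5.43 to 54.4 ± 13.9), 14696824 to 14697847 (from 10.5 ± 1.20 to 26.6 ± 1.89) and 15261348 to 15262621 (from 35.8 ± 4.69 to 83.9 ± 13.0). The last 2 had no region of any kind within 100 kb. On chromosome 12, sites at 118010039 to 118011850 and 109712337 to 109713474 rose by 1.49 and by 1.30 (log2). The smallest of the 10 rises, on chromosome 1 (81740919 to 81742279), rested on fed libraries that varied widely, 6.25, 11.99 and 3.66, against 17.9, 14.2 and 17.3 in the fasted ones (log2 change 1.27, SE 0.28, adjusted p = 0.0029, limma).

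**Figure D5:**
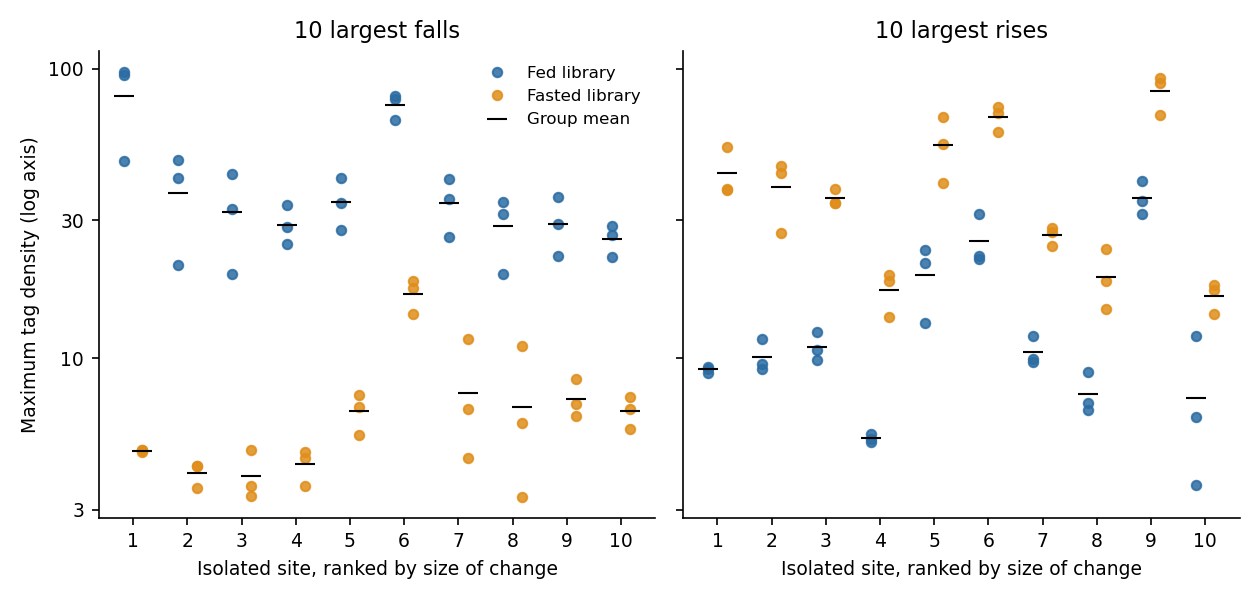
Maximum tag density (log axis) in each of the 6 libraries at the 10 isolated sites with the greatest fall (left) and the 10 with the greatest rise (right), ranked by size of change; dots are libraries and bars are group means (n = 3 each). The groups do not overlap at any of the 20 sites, as the rule for choosing them required, and the greatest fall goes from a fed mean of 80.2 to a fasted mean of 4.80.

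Regions called in 1 group only lay near some of the changed isolated sites; the same libraries gave these calls and the changes. A region called in all 3 fed and no fasted libraries lay within 100 kb of 22 of the 141 fallen sites (15.6%), of 66 of the 1256 sites that did not pass (5.25%) and of 2 of the 76 risen sites (2.63%). A region called in all 3 fasted and no fed libraries lay within 100 kb of 5 risen sites (6.58%), 16 sites that did not pass (1.27%) and 1 fallen site (0.709%). Of the other 34615 shared regions, changed or not, 18.2% had a fed-only region within 100 kb and 14.7% a fasted-only one. Fallen and risen isolated sites were of similar width, with medians of 1035 and 1061 bp. Having no region of any kind within 100 kb went with falls in 27 of 284 sites (9.51%) and rises in 10 (3.52%), and having one with falls in 114 of 1189 (9.59%) and rises in 66 (5.55%).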

How the data were processed

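DNase I hypersensitive sites were measured by sequencing in 6 liver libraries, 3 fed and 3 fasted. Per the labels' protocols, fragments of 100 to 500 bp were purified on sucrose gradients. The submitters' processing notes name CASAVA 1.8 and mm9. Aligner and caller: not given in the sources used here. Per the file headers, hotspots were called per sample, with a maximum and an average tag density (a coverage signal deposited by the authors), beside a z-score with its p-value; the deposited score and p-value were used for no comparison. Every maximum density was a whole multiple of 1 step per library (100% within 0.05 step), from which relative depth was taken.

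A region's density in a library is its highest hotspot there. limma 3.58.1 (R 4.3.3, trended eBayes) was fitted to all 36088 shared regions, and widths are end minus start. The fit was also run on simulated normal noise whose spread followed density as in the data. That run does not test how the fit handles tag heights. No count model was used, since heights are not counts per region. Other steps used Python 3.11.15 with pandas 2.3.3, numpy 2.4.6 and, for plots, matplotlib 3.10.9. Named sites are the 10 greatest changes in each direction with groups apart, the 5 widest gaps, the 5 highest and 5 lowest densities, the 3 sites on each side of 100 kb and the 3 widest regions. The members and lists were chosen with earlier results of these data known. Alternatives were other pseudocounts (0.1 and 10), scalings, gaps and lists, a replicate block and leaving out each library. Chromosomes X and Y were left out of the comparison. Sequences and gene names were not used here, since the reference tables are of another build.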

Additional observations from a re-analysis of the deposited data

Results flagged for a closer look

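Isolated sites also lay on chromosome X, outside the chromosomes of the comparison, which is a signal in data the report did not use. Of 956 shared regions there, 118 (12.3%) had a gap of over 100 kb to the nearest other shared region. Their median density was 8.47, and that of the other shared regions of chromosome X was 14.02.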

How the results depend on the processing

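Under every alternative that kept the same 1473 isolated sites, the share that fell was above that of the matched regions, with counts of 119 (quantile normalization) to 160 (no centring), and 98 (without fed replicate 3) to 134 on leaving out each library; in the upper 50% of regions by density, with fewer sites in the fit, it was below (6.63 against 7.81%), with 26 falls and 17 rises. Rises numbered 45 without centring, the cause was not tested, and 43 to 65 on leaving out each library. The limit itself set the numbers: gaps over 50 kb gave 3495 sites (176 rose, 320 fell, median density 14.7), gaps over 200 kb gave 553 (36 rose, 58 fell; the share of rises, 6.51%, was then above the matched 5.29%), and gaps to any region called in any library gave 284 (10 rose, 27 fell). By average in place of maximum density the median was 4.36, which is another scale. Replicate numbers gave no sign of pairing (deviations of same-numbered libraries correlated at -0.069, -0.029 and -0.17), and the replicate block gave 61 rises and 124 falls. Centring within density deciles (77 rises, 120 falls) and a fit of regions with 1 hotspot per library (67 and 134) were added after seeing the data. The 20 named changed sites kept direction and call in all 356 values, but were picked for large changes. Of 360 values for the 20 other named sites, 7 passed, at chromosome 7 (67535589 and 67636845) and chromosome 17 (39979646), and 36 changed sign without passing. Depth limits the weakest sites, 12 to 18 tags high at the 5th percentile if 1 step of the density values is 1 tag.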

Other observations

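Regions called in 1 to 5 libraries lay over 100 kb from any shared region in 11.2% of 36634 cases, where 4.08% of the shared regions themselves were isolated. Of 1153 regions called in all 3 fed and no fasted libraries, 77 (6.68%) lay over 100 kb from any shared region, and of 852 called in all 3 fasted and no fed libraries 43 (5.05%) did. The share was 7.73% for 4798 regions called in 5 libraries, 8.29% for 4 libraries, 8.75% for 3, 10.55% for 2 and 14.6% for 13945 regions called in 1. The distant sites of the fed-only and fasted-only sets were weak, with median densities of 5.33 and 4.82, where the isolated sites called in all 6 libraries had 11.4.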
